A study of Mus musculus with 7 samples.

Results

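The Il17a and Il17f locus was examined for BRG1 binding in mouse CD4+ T helper cells. It was taken by position as chromosome 1, 20690000 to 20800000 of the mm9 build, and holds 110 of the 2638950 bins of 1 kb that make up chromosomes 1 to 19 and X. Il17a (gene ID 16171) lies at about 20.721 to 20.725 Mb on the forward strand, and Il17f (gene ID 257630) at about 20.767 to 20.774 Mb on the reverse strand. The intergenic stretch therefore holds the 3′ ends of both genes, and the start of each gene faces outwards. In RefSeq (GRCm38.p6) the next gene beyond Il17f is Mcm3; its mm9 position was not used here, so which called regions or bins touch it is not stated.

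Chromatin immunoprecipitation and sequencing (ChIP-seq) was done with an antibody, J1, against BRG1. There were 7 libraries, each the only one of its group. Stimulated Th17 cells were naive cells of Balb/C mice cultured with soluble anti-CD3 and anti-CD28, TGF-β (1 ng/ml), IL-1β (10 ng/ml), IL-6 (100 ng/ml) and antibodies to IL-4 and IFNγ, expanded in IL-23 (10 ng/ml), and then given PMA (50 ng/ml) with ionomycin (500 ng/ml) for 1.5 h. Stimulated Th1 cells had been grown on plate-bound anti-CD3 and anti-CD28 in IL-12 (1 ng/ml) with anti-IL-4, and stimulated Th2 cells in IL-4 (10 ng/ml) with anti-IFNγ, both expanded in IL-2 (100 U/ml) and treated with the same PMA and ionomycin. Resting Th1 and resting Th2 cells had those cultures without that final treatment. Naive CD4+CD62L+ cells were taken from spleens and lymph nodes of mice aged 4 to 6 weeks, at 95% purity, and the input was DNA of pooled CD4+ T helper cells without immunoprecipitation. No resting Th17 library was analysed, so what in the Th17 library came with the subset and what came with stimulation cannot be told apart. The Th17 culture also differed from the Th1 and Th2 cultures in its soluble antibodies and in that no IL-2 is listed for it. Its anti-CD3 was at 4 µg/ml and its anti-CD28 at 1 µg/ml, against 1 and 2 µg/ml in the Th1 and Th2 cultures. The antibodies to IL-4 or IFNγ were each at 10 µg/ml where used.

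IL-17A and IL-17F are related cytokines that signal through a shared receptor and draw neutrophils to epithelia, and Th17 cells are the helper subset defined by making them. Both genes depend on the nuclear receptor RORγt, acting with STAT3, BATF, IRF4 and RUNX1. BRG1 is the ATPase of SWI/SNF (BAF) complexes, which slide or evict nucleosomes at promoters and distal elements. PMA and ionomycin stand in for signals of the T cell receptor and switch on cytokine genes within hours.

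The 250 bases upstream of each gene start are shown because both promoters carried the same pair of short motifs. Sequences are from RefSeq, build GRCm38.p6, and their coordinates do not line up with the mm9 positions used elsewhere in the text. Capitals mark AGGTCA, the core that ROR receptors bind, and ACCACA, the core that RUNX factors bind, on either strand. The Il17a sequence is chr1:20730655-20730904 on the forward strand, and the Il17f sequence is chr1:20784271-20784520 on the reverse strand.
Il17a: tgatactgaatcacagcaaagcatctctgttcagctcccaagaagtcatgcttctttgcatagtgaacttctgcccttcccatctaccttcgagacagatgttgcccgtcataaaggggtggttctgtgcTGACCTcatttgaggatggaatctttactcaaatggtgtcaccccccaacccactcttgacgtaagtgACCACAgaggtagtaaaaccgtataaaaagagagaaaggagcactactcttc
Il17f: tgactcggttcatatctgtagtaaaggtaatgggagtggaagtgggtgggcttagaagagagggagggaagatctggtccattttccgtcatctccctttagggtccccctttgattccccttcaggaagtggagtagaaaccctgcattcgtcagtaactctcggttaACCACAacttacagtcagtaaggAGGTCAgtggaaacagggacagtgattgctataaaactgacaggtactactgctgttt

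AGGTCA began 120 bases upstream of the Il17a start, on the opposite strand, and 58 bases upstream of the Il17f start. ACCACA began 52 bases upstream of the Il17a start and 81 bases upstream of the Il17f start. Of 32851 promoters of this length in the table, 14.0% held AGGTCA and 14.0% held ACCACA, so neither word is rare. TGANTCA, a loose form written for AP-1 that takes any base at N, was found in the Il17a promoter and in 6.75% of all promoters. The match in Il17a reads TGAATCA, with A at the free base, and so is not taken as an AP-1 motif. GGAAA, the NFAT core, was found at 2 places in the Il17f promoter and in 55.6% of all. TTCNNNGAA for STAT factors (7.02% of all) and the E-box CACGTG (6.02%) were in neither window. All motifs were searched on both strands, and 0 pairs of matches overlapped. A match is a run of letters and was not tested as a site.

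BRG1 reads over the whole locus were highest in stimulated Th17 cells. After 1 read was kept per position and strand, the locus held 858 reads in stimulated Th17, 98 in stimulated Th1 and 181 in stimulated Th2, with 50 in resting Th1, 42 in resting Th2, 63 in naive and 140 in input. The libraries differed in depth, from 1340208 distinct reads in resting Th2 to 7892944 in stimulated Th17, so 1 read is worth 0.746 reads per 1000000 distinct reads (RPM) in resting Th2 and 0.127 RPM in stimulated Th17. On that scale the locus had 108.7 RPM in stimulated Th17, 25.0 in stimulated Th1 and 42.5 in stimulated Th2, with 27.7 in resting Th1, 31.3 in resting Th2, 30.4 in naive and 39.6 in input. Stimulated Th17 was the only library far above the input, and the other BRG1 libraries lay near or below it.

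The level in stimulated Th17 was 2.74 times that of input (95% interval 2.29 to 3.30). Ratios to input were 0.631 in stimulated Th1 (0.482 to 0.823), 1.07 in stimulated Th2 (0.855 to 1.35), 0.698 in resting Th1 (0.495 to 0.970), 0.791 in resting Th2 (0.546 to 1.12) and 0.767 in naive (0.561 to 1.04). Every interval here is a conditional exact interval that covers counting error only, since PCR copies are not independent molecules and no group has a replicate. In bins of 10 kb without called windows the median ratio to input was already low, with log2 shifts of -0.90 for stimulated Th17, -0.96 for stimulated Th1, -0.92 for stimulated Th2, -0.52 for resting Th1, -0.72 for resting Th2 and -0.35 for naive. Relative to those medians the ratios were 5.11 for stimulated Th17, 1.225 for stimulated Th1, 2.03 for stimulated Th2, 1 for resting Th1, 1.3 for resting Th2 and 0.975 for naive. Stimulated Th17 was above input under both scalings. Naive had a ratio under 1 in both, but its interval by RPM included 1 and the 0.975 has no interval. The ratios of stimulated Th1 and resting Th2 were under 1 by the one scaling and above 1 by the other.

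**Figure D1:**
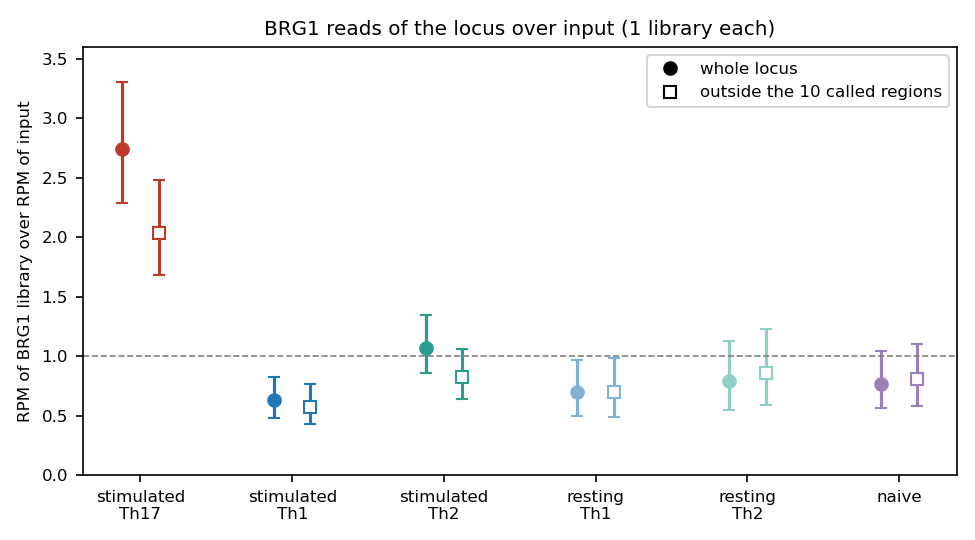
Ratio of RPM in each BRG1 library to RPM in input over the whole locus (filled circles) and over the locus without its 10 called regions (open squares), with 95% counting intervals, 1 library each. Stimulated Th17 stands at 2.74 and 2.04, and the remaining 5 libraries between 0.573 and 1.07.

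Against stimulated Th1, stimulated Th17 had 4.35 times the RPM over the locus (3.52 to 5.41), and against stimulated Th2 it had 2.56 times (2.18 to 3.02). The genome was cut into tiles of the same 110 kb, so that these ratios could be set beside the rest. The median tile ratio was 0.889 for stimulated Th17 over stimulated Th1 and 0.866 for stimulated Th17 over stimulated Th2. The locus ranked 2 of 22889 tiles in the comparison with stimulated Th1; the tile above it, on chromosome X, had 12 reads in stimulated Th17 and 0 in stimulated Th1. It passed a call of at least 3-fold with an interval that left out 1, as did 0.0262% of tiles. Against stimulated Th2 it ranked 25 of 22894 and did not pass that call, which 0.0437% of tiles passed.

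**Figure D2:**
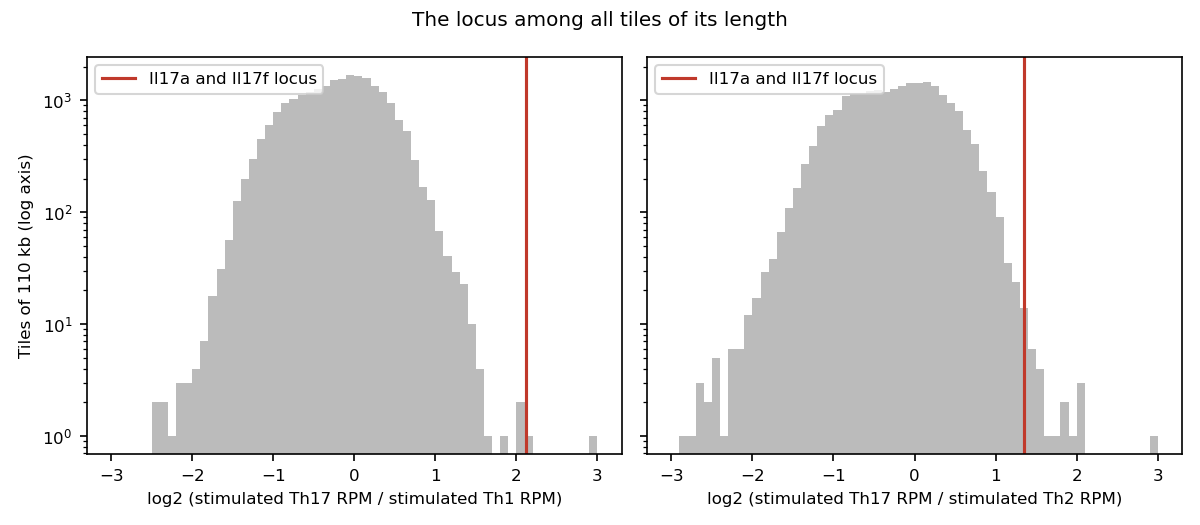
Number of 110 kb tiles (log axis) by the log2 ratio of RPM in stimulated Th17 to stimulated Th1 (left) and to stimulated Th2 (right), with the locus as a line; ratios beyond the axis are drawn in its last bar. The locus, at ratios of 4.35 and 2.56, lies in the upper tail of both distributions.

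Stimulated Th1 had fewer reads over the locus than stimulated Th2, with a ratio of 0.589 (0.456 to 0.757), and 2.32% of tiles had a lower one. The remaining comparisons gave intervals that included 1. Stimulated over resting cells gave 0.905 in Th1 (0.637 to 1.30) and 1.36 in Th2 (0.964 to 1.94), where the median tile had 0.730 and 0.865. Relative to the 10 kb bins without called windows these ratios were 1.18 and 1.57. With all deposited reads kept the ratio in Th2 was 1.54 (1.13 to 2.11). That interval counts PCR copies as independent reads, so its leaving out 1 is not read as a difference. Repeated reads made up 36.6% of the resting Th2 library but 23.6% of its reads in the locus. Resting Th1 over naive gave 0.909 (0.615 to 1.34), resting Th2 over naive 1.03 (0.680 to 1.55) and resting Th1 over resting Th2 0.882 (0.574 to 1.36). With 42 to 63 reads in the unstimulated libraries, differences within these intervals were not detectable at this depth.

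The excess in stimulated Th17 over stimulated Th1 was smaller in the tiles beyond the locus. In the tile on the Il17a side (20580001 to 20690000), stimulated Th17 had 26.0 RPM, stimulated Th1 15.6, stimulated Th2 15.0 and input 28.6. In the tile on the Il17f side (20800001 to 20910000), the values were 82.7 in stimulated Th17, 74.8 in stimulated Th1 and 81.7 in stimulated Th2, beside 59.2 in input. Stimulated Th17 over stimulated Th1 was 1.67 on the Il17a side (1.25 to 2.26) and 1.11 on the Il17f side (0.962 to 1.27). In the next tiles outwards it was 1.42 (1.18 to 1.71) and 1.35 (1.12 to 1.64) on the Il17f side, and 1.25 (0.868 to 1.82) and 0.744 (0.525 to 1.06) on the Il17a side, where both intervals included 1. By RPM, all 6 BRG1 libraries were above the input in the tile on the Il17f side, whereas in the locus itself stimulated Th17 stood apart. Naive was only slightly above it there, at 62.3 RPM against 59.2, and no interval was computed for that ratio.

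**Figure D3:**
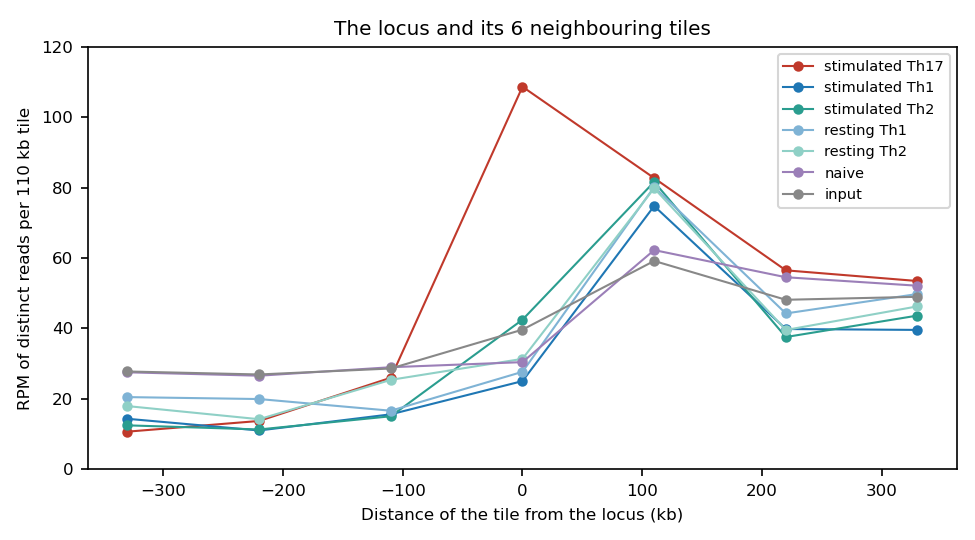
RPM of distinct reads per 110 kb tile in the locus (0 kb) and in 3 tiles on each side, 1 line per library. Stimulated Th17 stands at 108.7 RPM in the locus, while every library lies between 59.2 and 82.7 RPM in the next tile on the Il17f side.

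Within the locus, the places with the most BRG1 reads in stimulated Th17 cells lay away from the gene starts. Most reads of stimulated Th17 were nevertheless spread over the locus, since the regions called below held 31.6% of them. A window of 200 bp was called where its reads exceeded both the genome average and the nearby input, at a Poisson tail probability of 1e-05. In stimulated Th17, 15 of 550 windows were called, against 0.499% of windows genome-wide. In stimulated Th2, 4 windows were called (0.341% genome-wide). In stimulated Th1 (0.332%), resting Th1 (0.0827%), resting Th2 (0.0735%) and naive (0.0461%), 0 windows were called. Because depth sets how many windows can be called, each library was also thinned to 1340208 distinct reads, in 1 random draw: 6 windows were then called in stimulated Th17 (0.0501% genome-wide), 1 in stimulated Th2 (0.0947%) and 0 in stimulated Th1 (0.106%), resting Th1 (0.0596%), resting Th2 (0.0735%) and naive (0.0256%). Joined over gaps of 1 window, the called windows made 10 regions covering 3400 bp, or 3.09% of the locus. The regions were chosen by the counts given for them below, so those counts are a description.

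The strongest region lay between the genes, at 20749601 to 20750400, centred 29 kb from the Il17a start in the direction of Il17f. It held 101 reads in stimulated Th17, 1 in stimulated Th1 and 17 in stimulated Th2, with 1 in resting Th1, 0 in resting Th2, 1 in naive and 0 in input. Stimulated Th17 had the most reads, stimulated Th2 came next, and each of the other libraries had 0 or 1. The level was 12.8 RPM in stimulated Th17, 0.255 in stimulated Th1 and 3.99 in stimulated Th2. Stimulated Th17 was 50.1-fold above stimulated Th1 (8.80 to 1999), a wide interval set by the single stimulated Th1 read. It was 3.21-fold above stimulated Th2 (1.91 to 5.72). Against a floor of 3 counts in place of 0 reads, it was 15.1-fold above input (exact lower bound 12.03). Stimulated Th2 was in turn 4.70-fold above input against that floor (exact lower bound 3.42). Its highest window, 20750001 to 20750200, held 58 reads in stimulated Th17, 1 in stimulated Th1 and 11 in stimulated Th2. In stimulated Th17 the reads of the region were split between 51 on the forward and 50 on the reverse strand.

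A pair of strong regions stood upstream of Il17f, separated by 400 bp. All distances from a gene start in the text rest on starts known only to the nearest kb. The region at 20781601 to 20781800, 7.7 kb upstream of the Il17f start, held 41 reads in stimulated Th17, 5 in stimulated Th1 and 12 in stimulated Th2, with 2 in resting Th1, 0 in resting Th2, 0 in naive and 3 in input. This region was also called in stimulated Th2. Stimulated Th17 over stimulated Th2 was 1.84, with an interval that included 1 (0.951 to 3.86), while stimulated Th17 over stimulated Th1 was 4.07 (1.61 to 13.2). Stimulated Th2 was 3.31-fold above input (0.895 to 18.3) and 2.21-fold above stimulated Th1 (0.723 to 7.99), and both intervals included 1. The region at 20782201 to 20783000, 8.6 kb upstream, held 59 reads in stimulated Th17, 3 in stimulated Th1 and 3 in stimulated Th2, with 0 in resting Th1, 0 in resting Th2, 0 in naive and 5 in input. Here stimulated Th17 stood alone, 9.76-fold above stimulated Th1 (3.18 to 48.7), 10.6-fold above stimulated Th2 (3.46 to 53.0) and 5.28-fold above input (2.14 to 16.9). These neighbouring regions therefore gave different ratios of stimulated Th17 to stimulated Th2; the difference between them was not tested.

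The region at 20730601 to 20731000, between the genes and 9.8 kb from the Il17a start, was the only one of the 10 with more RPM in stimulated Th2 than in stimulated Th17. It held 15 reads in stimulated Th17, 4 in stimulated Th1 and 18 in stimulated Th2, with 1 in resting Th1, 0 in resting Th2, 0 in naive and 1 in input. The level was 1.90 RPM in stimulated Th17, 1.02 in stimulated Th1 and 4.22 in stimulated Th2. Stimulated Th17 over stimulated Th2 was 0.450 (0.211 to 0.945). Stimulated Th2 was 4.14-fold above stimulated Th1 (1.36 to 16.8) and 14.9-fold above input (2.36 to 621), and at least 1.89-fold above resting Th2 (exact lower bound 1.38).

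The other called regions were weaker, with 7 to 16 reads in stimulated Th17. The region at 20744601 to 20744800, between the genes, held 16 reads in stimulated Th17 and 0 in each of the other libraries. Against the floor of 3 counts this is 2.39-fold above input (exact lower bound 1.73) and 2.65-fold above stimulated Th1 (exact lower bound 1.91). At 20743801 to 20744000, also intergenic, the count was 8 in stimulated Th17, 1 in stimulated Th1 and 0 elsewhere. Inside Il17a, at 20722201 to 20722400, stimulated Th17 had 8 reads and every other library 0. Inside Il17f, at 20771401 to 20771600, there were 7 reads in stimulated Th17, 0 in stimulated Th1 and 1 each in stimulated Th2, naive and input. The region nearest the Il17f start, 20774401 to 20774600, had 8 reads in stimulated Th17, 0 in stimulated Th1 and 2 in stimulated Th2. It lay about 0.5 kb upstream of the start as placed to the nearest kb, so it may lie at the start itself. The one at 20778401 to 20778600 had 8 in stimulated Th17, 2 in stimulated Th1 and 0 in stimulated Th2, beside 1 in input. For all of these except 20744601 to 20744800, the intervals against stimulated Th1, stimulated Th2 and input included 1 wherever a ratio or an exact bound could be given.

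**Figure D4:**
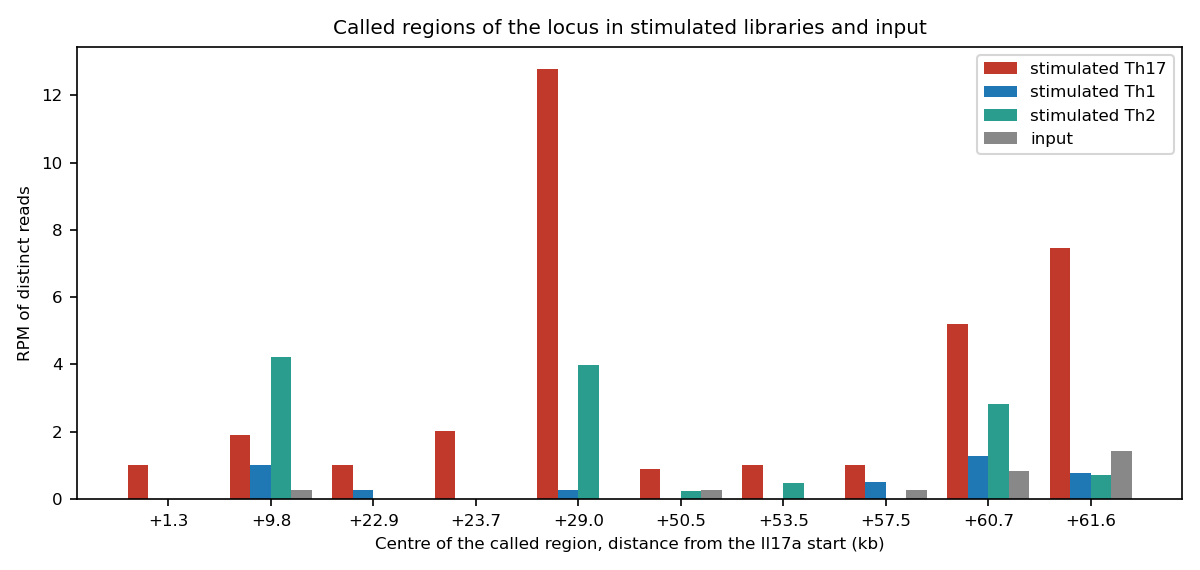
RPM of distinct reads in the 10 called regions for stimulated Th17, stimulated Th1, stimulated Th2 and input, ordered by distance from the Il17a start. The region at 29 kb reaches 12.8 RPM in stimulated Th17, and the region at 9.8 kb is higher in stimulated Th2, at 4.22 RPM, than in stimulated Th17, at 1.90 RPM.

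All 3 regions called in stimulated Th2 (9.8 kb, 29 kb and 60.7 kb from the Il17a start) were also called in stimulated Th17. They make up 30% of the regions called in stimulated Th17 and 100% of those called in stimulated Th2. No genome-wide share was computed for this overlap, and it depended on depth. With the libraries thinned to equal depth, no region was called in both. Stimulated Th2 then kept the region at 9.8 kb, where stimulated Th17 had no called window. Stimulated Th17 kept those at 23.7, 29, 60.7 and 61.6 kb, where stimulated Th2 had none. In 6 of the 10 regions the naive and both resting libraries had no read at all. In these shallow libraries a count of 0 allows up to 1.45 RPM in naive, 1.66 in resting Th1 and 2.24 in resting Th2. Most 1 kb bins of the locus were also empty in them, with 62 of 110 in naive, 70 in resting Th1 and 76 in resting Th2. A count of 0 therefore does not set these regions apart, and no genome-wide share was computed. The 10 regions together held 271 reads in stimulated Th17, 16 in stimulated Th1 and 53 in stimulated Th2, beside 11 in input. When regions were called on 50% of the reads of each BRG1 library and counted on the others, 5 regions were called, of which 4 overlapped the 10. The held-out reads numbered 97 in stimulated Th17, 7 in stimulated Th1 and 19 in stimulated Th2. The held-out ratio was 6.88 for stimulated Th17 over stimulated Th1 (3.22 to 17.6) and 2.76 for stimulated Th17 over stimulated Th2 (1.67 to 4.77). Both parts of the reads come from the same single libraries, and all of the 10 regions were called in stimulated Th17, the deepest library. The held-out ratios are therefore a description and do not stand for a replicate.

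The called regions did not carry the whole excess of stimulated Th17. They held 31.6% of its reads in the locus, 16.3% of those in stimulated Th1 and 29.3% of those in stimulated Th2. Outside them, stimulated Th17 still had 74.4 RPM, stimulated Th1 20.9, stimulated Th2 30.0 and input 36.5. The ratio of stimulated Th17 to input there was 2.04 (1.68 to 2.48), and to stimulated Th1 it was 3.55 (2.82 to 4.53). Stimulated Th2 over input was 0.822 outside the regions (0.639 to 1.06). Stimulated Th17 over stimulated Th2 was 2.48 there (2.04 to 3.02), close to the 2.56 of the whole locus.

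**Figure D5:**
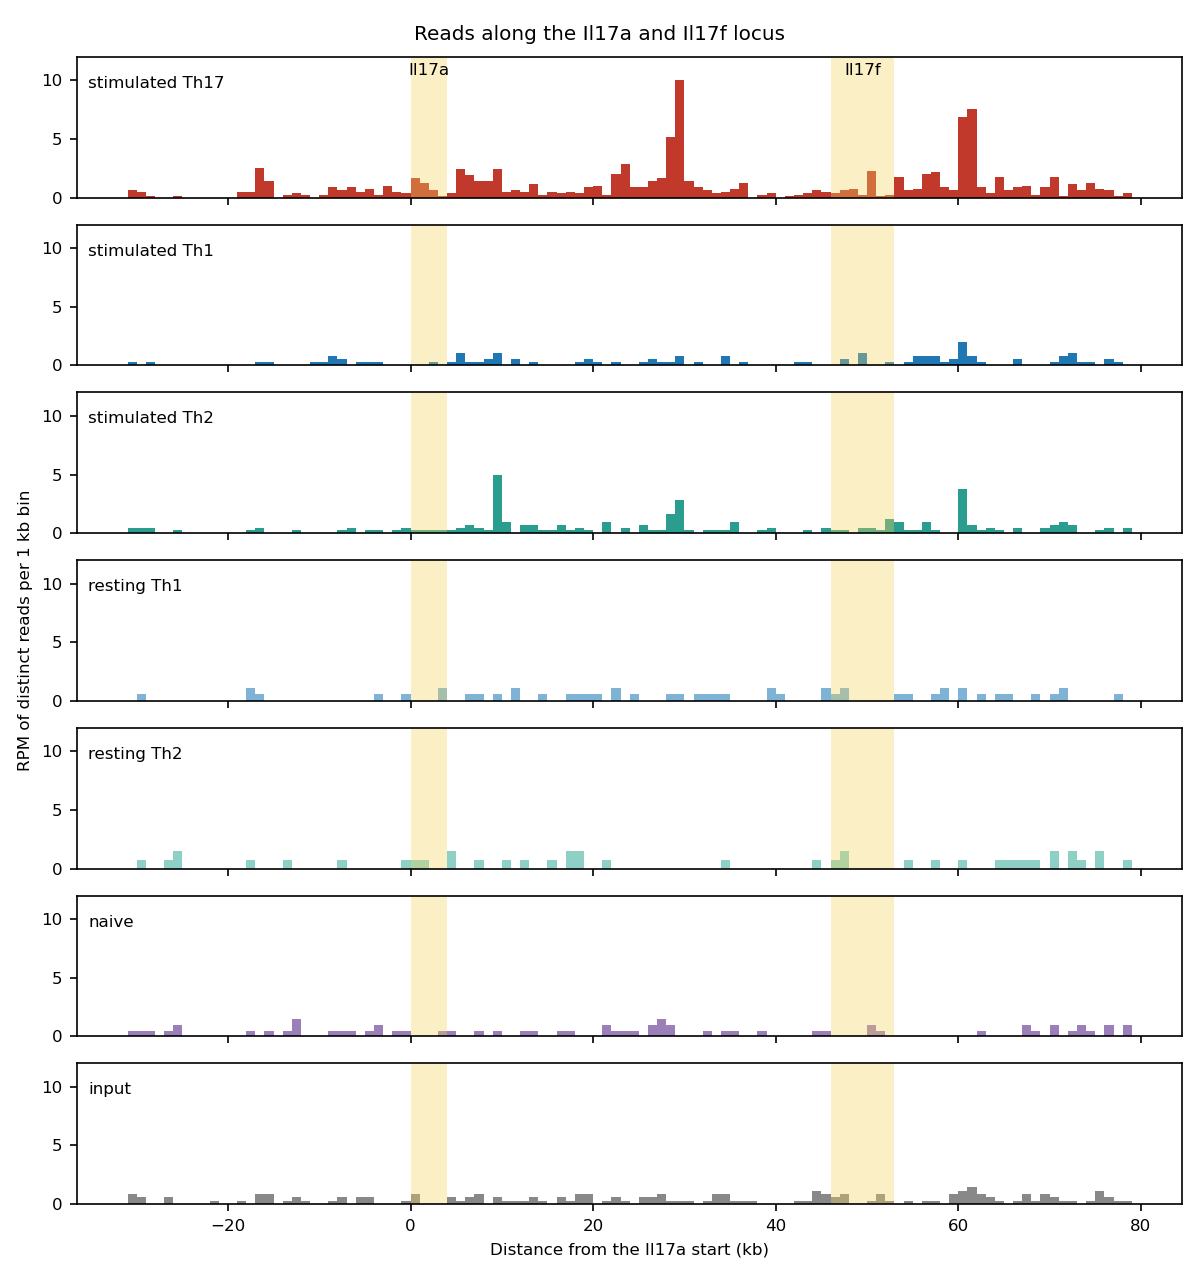
RPM of distinct reads in 110 bins of 1 kb, by distance from the Il17a start, with 1 panel per library on a common scale and the genes shaded. The tallest bins of stimulated Th17, with 79 and 60 reads, lie between the genes and upstream of Il17f, and stimulated Th2 shows smaller bins at some of the same places.

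The spread of the excess could also be seen bin by bin in the profile of 1 kb bins. Stimulated Th17 had more RPM than stimulated Th1 in 88 of 110 bins and less in 11, while genome-wide it had more in 37.6% and less in 36.0% of bins. Against stimulated Th2 it had more in 80 bins and less in 18, beside 41.5% and 33.3% genome-wide. At equal depth, where many bins are empty in both libraries, it had more than stimulated Th1 in 60 bins and less in 8, beside 18.6% and 17.6% of bins genome-wide. It had more than stimulated Th2 in 57 bins (51.8%) and less in 18 (16.4%), beside 18.6% and 18.0% genome-wide, so the share of lower bins was close to that of the genome. Bins without a read numbered 12 in stimulated Th17, 56 in stimulated Th1 and 38 in stimulated Th2, beside 35 in input.

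Of the 110 bins, 29 had at least 10 reads in stimulated Th17 and stimulated Th1 together, and 15 of these were called higher in stimulated Th17 by a 3-fold rule that takes any ratio to 0 reads as past it, beside 6.96% of such bins genome-wide. With a count of 0 taken as the floor of 3, which was chosen after seeing the data, 9 bins reached 3-fold (4.47% genome-wide). The other 6 of the 15 had 0 stimulated Th1 reads and ratios to the floor under 3-fold. Of 30 bins tested against stimulated Th2, 15 were called higher by the same rule, beside 7.11% genome-wide, and 11 reached 3-fold with the floor (4.93% genome-wide). In both comparisons 0 bins were called lower in stimulated Th17, beside 3.14% of bins genome-wide against stimulated Th1 and 4.41% against stimulated Th2. In the locus, 26 bins had 10 or more reads in stimulated Th17 alone, so most bins passed the filter through the library in which they were high, and the counts are a description. The bins with the most reads in stimulated Th17 started at 20750001 (79 reads in stimulated Th17, 3 in stimulated Th1, 12 in stimulated Th2), 20782001 (60, 3 and 3) and 20781001 (54, 8 and 16), followed by 20749001 with 41 reads and 20744001 with 23. The bin at 20704001 to 20705000, upstream of Il17a and without a called window, was called in both comparisons, with 20 reads in stimulated Th17, 1 in stimulated Th1 and 2 in stimulated Th2. In the remaining 6 comparisons, 3 bins could be tested between stimulated Th1 and stimulated Th2 and 3 between stimulated and resting Th2. The only bin called in these comparisons was 20730001 to 20731000, which passed the filter through its stimulated Th2 reads. There stimulated Th1 had 4 reads and stimulated Th2 had 21, a ratio of 0.207 (0.0517 to 0.614), beside 4.04% of bins lower and 2.02% higher in stimulated Th1 genome-wide. Resting Th2 had 0 reads there, and stimulated Th2, with those 21, was 2.20-fold above the floor of 3 counts (exact lower bound 1.64). Genome-wide, 8.29% of bins were higher and 2.13% lower in stimulated Th2. With the floor this bin did not reach 3-fold, while 5.45% of bins genome-wide did. Only 1 bin could be tested between stimulated and resting Th1, and it was not called (16.7% higher and 1.97% lower genome-wide); 0 bins could be tested in the comparisons among resting and naive libraries.

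By density, reads of stimulated Th17 were higher upstream of Il17f and between the genes than in either gene. The density was 1.42 RPM per kb in the 26 kb upstream of Il17f, 1.19 in the 42 kb between the genes, 0.919 in Il17a, 0.670 in Il17f and 0.429 in the 31 kb upstream of Il17a. In input the same stretches had 0.457, 0.391, 0.212, 0.404 and 0.247 RPM per kb. The order differed relative to input: stimulated Th17 over input was 4.33 in Il17a (1.34 to 22.2), 3.10 upstream of Il17f (2.24 to 4.39), 3.06 between the genes (2.31 to 4.10), 1.74 upstream of Il17a (1.13 to 2.76) and 1.66 in Il17f (0.807 to 3.73). The wide interval of Il17a, which rests on 3 input reads, overlaps all the others.

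In the 4 kb of Il17a there were 29 reads in stimulated Th17, 1 in stimulated Th1 and 4 in stimulated Th2, with 2 in resting Th1, 2 in resting Th2, 1 in naive and 3 in input. In the 7 kb of Il17f there were 37 in stimulated Th17, 7 in stimulated Th1 and 12 in stimulated Th2, with 3 each in resting Th1, resting Th2 and naive, and 10 in input. Stimulated Th17 was the library with the highest RPM in both genes. In Il17a it was 14.4-fold above stimulated Th1 (2.39 to 588) and 3.91-fold above stimulated Th2 (1.37 to 15.3). In Il17f the ratio was 2.62 to stimulated Th1 (1.15 to 6.97) and 1.66 to stimulated Th2 (0.849 to 3.51). The intervals of the genes overlap for each of these ratios, and the difference between the genes was not tested.

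The gene starts, known here only to the nearest kb, were not the main places of BRG1 reads. The 2 kb around the Il17a start held 16 reads in stimulated Th17, 0 in stimulated Th1 and 3 in stimulated Th2, with 1 in resting Th1, 2 in resting Th2, 1 in naive and 4 in input. Around the Il17f start there were 16 reads in stimulated Th17, 1 in stimulated Th1 and 9 in stimulated Th2, with 1 in resting Th1, 0 in resting Th2, 0 in naive and 1 in input. At the Il17f start stimulated Th17 and stimulated Th2 had nearly the same level, 2.03 and 2.11 RPM, with a ratio of 0.960 (0.399 to 2.46). Stimulated Th2 was 7.46-fold above input at the Il17f start (1.03 to 327) and stimulated Th17 7.16-fold (1.11 to 300.2), both resting on 1 input read. At the Il17a start the ratio of stimulated Th17 to input was 1.79 (0.577 to 7.36), and by RPM no difference from input was detectable at this depth. Scaling by the 10 kb bins without called windows, where the median ratio was 0.537, was not applied to this window. Stimulated Th17 over stimulated Th1, against the floor of 3 counts, was 2.65-fold at the Il17a start (exact lower bound 1.91). At the Il17f start it was 7.94 (1.23 to 333), resting on 1 stimulated Th1 read. Over stimulated Th2 the ratio at the Il17a start was 2.88, with an interval that included 1 (0.824 to 15.4).

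An element known as CNS2, about 5 kb upstream of Il17a, is described as an enhancer of both genes in Th17 cells. This window was chosen after its values were seen. The 2 kb centred there held 10 reads in stimulated Th17, 2 in stimulated Th1 and 1 in stimulated Th2, with 0 in resting Th1, 0 in resting Th2, 1 in naive and 4 in input. By RPM, stimulated Th17 over input was 1.12 (0.323 to 4.89), so an excess over input could not be detected in this window. Scaling by the 10 kb bins without called windows, where the median ratio was 0.537, was not applied to it. Stimulated Th17 was 2.48 times stimulated Th1 (0.529 to 23.3) and 5.40 times stimulated Th2 (0.768 to 234). Both intervals included 1, so with these few reads the presence or absence of BRG1 there could not be told.

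Repeated reads made up more of the stimulated Th17 reads in the locus than in its library as a whole. In the locus, 17.7% of the deposited reads of stimulated Th17 repeated a position and strand, against 10.2% in its whole library, whereas the shares were 3.92% in stimulated Th1 and 6.22% in stimulated Th2, below the 11.4% and 11.8% of those libraries. The region at 20749601 held 173 deposited reads in stimulated Th17 for its 101 distinct ones. With all deposited reads kept, stimulated Th17 over stimulated Th1 in the locus was 5.14.

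The tiles whose pattern over the 6 BRG1 libraries was most like that of the locus were found by Euclidean distance of the log2 ratios to input among 22893 tiles. They lay on chromosome 1 (93620001 to 93730000, distance 0.66), chromosome 7 (81520001 to 81630000, 0.67) and chromosome 11 (44450001 to 44560000, 0.69). Their ratios of stimulated Th17 to input were 2.21, 1.92 and 1.87, all below the 2.74 of the locus, and their ratios of stimulated Th1 to input were 0.855, 0.827 and 0.716. No gene names are given because no mm9 annotation was used.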

How the data were processed

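BRG1 ChIP-seq reads of 6 libraries and 1 input library were analysed. The authors deposited the start, end and strand of every aligned read, 34 bases each, and no count, signal or score of their own. Per the submitters' processing notes the positions are on mm9. How reads were aligned and filtered is not given in the sources used here. All counts were computed from those positions.

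The locus and genes were placed by a stated rule, and the members and lists were chosen with earlier results of these data known. From 2114977 reads in resting Th2 to 8786251 in stimulated Th17, 1 read was kept per 5′ end and strand, chromosome Y was left out, and 5′ ends were moved 75 bp inwards. Reads were counted in 200 bp windows and 1 kb bins. For window calls, with a Poisson tail of 1e-05, the expected count was the highest among the genome average and input, scaled to depth, over 1, 5 and 10 kb. All called regions were named, since there were no more than 12. Ratios of RPM have 95% conditional exact intervals; bins and tiles needed at least 10 reads in a pair, and tiles also 10 in input. No p-value is given, because each group has 1 library. The 8 comparisons, the alternatives and the floor of 3 counts are described with their results. The steps were tested on simulated data. Python 3.11.15, numpy 2.4.6, pandas 2.3.3, scipy 1.17.1 and matplotlib 3.10.9 were used. Promoters came from RefSeq (GRCm38.p6), which matched both genes with 1 entry each. The window 5 kb upstream of Il17a, counts outside called regions and bin calls with the floor were added after the data were examined.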

Additional observations from a re-analysis of the deposited data

Results flagged for a closer look

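The ratio of stimulated to resting cells over the locus went opposite ways in the 2 subsets, 0.905 in Th1 and 1.36 in Th2. The ratio of resting to naive cells also did, with 0.909 for Th1 and 1.03 for Th2. Each value rests on 1 pair of libraries, all 4 intervals included 1, and neither difference was tested. Relative to the 10 kb bins without called windows, both pairs went the same way, with 1.18 in Th1 and 1.57 in Th2 for stimulation and 1.02 in Th1 and 1.33 in Th2 for resting over naive. The unstimulated libraries held 42 to 63 reads of the locus and the median tile had ratios of 0.730 in Th1 and 0.865 in Th2 for stimulation; the part of depth and scaling in these values was not tested.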

How the results depend on the processing

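No paired analysis was possible because each group has 1 library, and no library could be left out. Scaled by 10 kb bins without called windows, ratios to input were 5.11 for stimulated Th17, 1.225 for stimulated Th1, 2.03 for stimulated Th2, 1 for resting Th1 and 1.3 for resting Th2; those of naive and of the 8 pairs stayed within their intervals. Outside the called regions, an alternative chosen after seeing the data, stimulated Th17 over input was 2.04, stimulated Th2 over input 0.822 and stimulated Th2 over resting Th2 0.958, which by construction leaves out the strongest windows. At equal depth, stimulated Th17 over stimulated Th1 was 5.83, and 6 windows were called in stimulated Th17 and 1 in stimulated Th2. At a Poisson tail of 1e-07, 9 windows were called in stimulated Th17. With a count of 0 taken as the floor of 3, also chosen after seeing the data, 9 bins were called between stimulated Th17 and stimulated Th1 and 0 between stimulated Th2 and resting Th2. With all deposited reads kept, 1 window was called in naive. Ends not moved, window starts moved by 100 bp and a 2-fold rule for bins left every count within 1.5 times and every locus ratio within its interval. Among 61 other values, 5 moved beyond their intervals, all at equal depth. Stimulated Th17 over stimulated Th1 was then 7.67 upstream of Il17a, 9 between the genes and 7 in Il17f (0.899 to 315). Over stimulated Th2 it was 3 between the genes, and over input it was 0 in the 2 kb around the Il17a start. Ratios with 0 reads in the lower library were left out of these alternatives. The cause of these shifts was not tested. With 98 reads or fewer in 4 of the BRG1 libraries, only large local differences could be detected in them.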
